A study of Mus musculus with 24 samples.

Results

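The aryl hydrocarbon receptor is a transcription factor that senses planar aromatic compounds, among them the polycyclic aromatic hydrocarbons of tobacco smoke, and its transcripts were followed here with those of 7 genes that act beside it or are known to answer to it. The 8 genes are Ahr, its partner Arnt, the feedback inhibitors Ahrr and Tiparp, the cytochromes P450 Cyp1a1, Cyp1b1 and Cyp2s1, and the aldehyde dehydrogenase Aldh3a1. They were taken by symbol from a table of 25239 genes, and all 8 were among the 13549 genes whose normalised counts averaged 10 or more, which were those tested. Cyp1a1 and Ahrr passed this filter only through the smoke-exposed cultures. Cyp1a1 averaged 3.41 in female air and 6.79 in male air cultures, and Ahrr averaged 0.154 and 1.93 there.

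RNA was sequenced from mouse tracheal epithelial cells, primary airway cells from FVB/NJ wild-type animals that were 7 to 8 weeks old. The cells were differentiated on inserts for 10 to 14 days with air on their upper side. There were 4 groups of 6 inserts each, namely female cells under cigarette smoke, female cells under humidified air, male cells under cigarette smoke and male cells under humidified air. Exposure lasted 10 days, and 1 smoke exposure burned 2 cigarettes over about 8 minutes. No gene was altered in any group, and the labels tie no insert to an animal. The inserts of a sex may therefore come from 1 preparation of cells, so the p-values measure the spread between inserts, and a difference between the sexes cannot be told apart from a difference between preparations.

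The values are counts that the authors had normalised between libraries, at 16038813 to 24485024 reads per library in the 23 libraries whose reads could be recovered. Female air insert 1 and female smoke insert 4 stood apart from their groups with a trend along transcript length, with Spearman coefficients of -0.67 and -0.43 between a gene's deviation and its length, against -0.14 to 0.33 in the 22 other libraries. Where a call of the 8 genes changes without both libraries, the value without them is given beside it. Krt5, a basal cell keratin, averaged 46066 or more in each group, whereas the pan-leukocyte gene Ptprc averaged 3.63 or less. The summed level of 8 leukocyte markers ran from 1321 to 4051 in female smoke and from 514 to 1803 in female air cultures, and from 416 to 828 in male smoke and from 110 to 249 in male air cultures. Adgre1 was listed at 0 in 3 groups, and of the 4 leukocyte markers tested, 2 rose and 1 fell in female and 2 rose and 0 fell in male cells. The sum of 7 fibroblast markers ran from 22.8 to 160 in female smoke and from 290.2 to 1509 in female air cultures, and from 29.7 to 97.0 in male smoke and from 167 to 430 in male air cultures, with Lum listed at 0 in both smoke groups. The sum of 5 endothelial markers stayed between 6.31 and 63.5 in all 24 cultures, with Cdh5 and Kdr listed at 0 in the female ones. Sums of epithelial cell markers also differed between smoke and air cultures, with some overlap. The summed level of 9 ciliated cell markers ran from 278 to 12710 in female smoke and from 12458 to 24340 in female air cultures, and from 391 to 4860 in male smoke and from 3927 to 7316 in male air cultures. For 8 club cell markers it ran from 65075 to 231906 in female smoke and from 199116 to 596478 in female air cultures, and from 106126 to 351535 in male smoke and from 489134 to 788114 in male air cultures. For 10 squamous markers it ran from 303452 to 415886 in female smoke and from 136664 to 285090 in female air cultures, and from 22003 to 54742 in male smoke and from 5613 to 11796 in male air cultures. By limma at an adjusted p under 0.05, 9 of 9 ciliated and 6 of 8 club markers fell in female cells. There 6 of 10 squamous markers rose and 1 fell. In male cells 0 of 9 ciliated markers passed, also in edgeR and DESeq2, 4 of 8 club markers fell, and 8 of 10 squamous markers rose and 1 fell. Among all genes tested, 15.5% rose and 19.3% fell in female, and 9.76% rose and 12.2% fell in male cells. The part of these marker shifts in the results below was not tested, and in such bulk samples fewer cells of a type and less RNA per cell cannot be told apart.

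Without ligand the receptor rests in the cytosol with chaperones. Once bound by ligand it enters the nucleus, pairs with Arnt and binds response elements with the core GCGTG, from which it raises transcription of genes for enzymes that oxidise and conjugate the ligand. Among the induced genes are brakes on the receptor itself: Ahrr competes for Arnt and for the response elements, and Tiparp is a mono-ADP-ribosyltransferase that modifies the receptor and lowers its activity.

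Smoke raised 4 of the 8 genes in both sexes, the enzymes Cyp1a1 and Cyp1b1 and the inhibitors Ahrr and Tiparp, and for each of them every smoke culture lay above every air culture of its sex. In female cells these 4 genes passed at an adjusted p under 0.05 (limma with Benjamini-Hochberg adjustment over 13549 genes) and none fell, where 34.8% of all genes tested passed, 15.5% upwards and 19.3% downwards. In male cells the 4 genes rose and Cyp2s1 fell, where 22.0% of all genes passed, 9.76% upwards and 12.2% downwards. Among all genes tested, 6.73% had every smoke culture above every air culture in female and 11.0% in male cells. In the order of all fold changes, highest first, Cyp1a1 stood at place 15 in female and 4 in male cells, Ahrr at 53 and 30, Cyp1b1 at 58 and 134, and Tiparp at 548 and 175. Cyp1a1 and Ahrr, under the filter in air, could enter these counts and places only by being high in smoke.

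**Figure D1:**
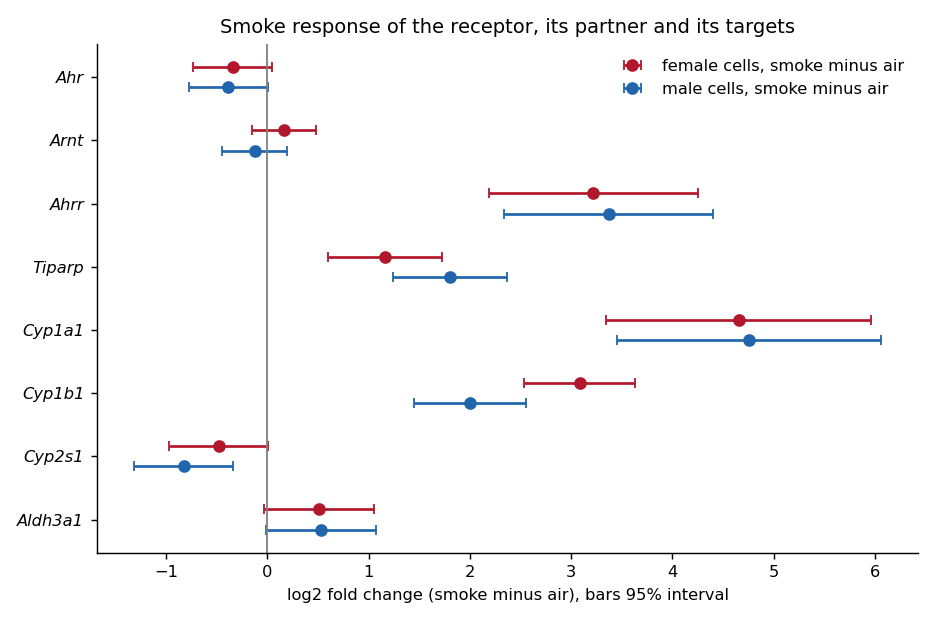
Log2 fold change of smoke over air for each of the 8 genes, with its 95% interval from the limma fit, in female and male cells (6 inserts per group). Cyp1a1, Ahrr, Cyp1b1 and Tiparp stand to the right of 0 in both sexes, while the intervals of Ahr, Arnt and Aldh3a1 include 0.

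The promoters of the 4 genes that rose in both sexes are shown because each carries the core that the receptor and Arnt bind. Each line gives the 250 bases upstream of the RefSeq transcription start on GRCm38.p6, 5′ to 3′ on the strand of the gene. Capitals mark GCGTG or, for a motif on the opposite strand, its reverse complement CACGC.
Cyp1a1: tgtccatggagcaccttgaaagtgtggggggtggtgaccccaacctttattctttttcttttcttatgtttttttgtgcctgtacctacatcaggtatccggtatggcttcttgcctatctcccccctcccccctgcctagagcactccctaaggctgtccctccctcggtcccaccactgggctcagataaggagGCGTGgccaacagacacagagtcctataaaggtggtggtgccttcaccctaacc
Cyp1b1: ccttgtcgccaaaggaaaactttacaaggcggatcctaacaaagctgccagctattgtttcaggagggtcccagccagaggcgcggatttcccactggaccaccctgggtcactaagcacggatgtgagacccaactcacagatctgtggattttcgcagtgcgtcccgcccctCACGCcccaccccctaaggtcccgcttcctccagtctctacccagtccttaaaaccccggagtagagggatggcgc
Ahrr: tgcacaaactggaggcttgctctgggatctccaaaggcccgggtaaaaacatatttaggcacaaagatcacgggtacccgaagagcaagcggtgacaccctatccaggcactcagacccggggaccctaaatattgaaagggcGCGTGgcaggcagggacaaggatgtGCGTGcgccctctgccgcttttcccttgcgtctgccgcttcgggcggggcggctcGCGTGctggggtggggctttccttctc
Tiparp: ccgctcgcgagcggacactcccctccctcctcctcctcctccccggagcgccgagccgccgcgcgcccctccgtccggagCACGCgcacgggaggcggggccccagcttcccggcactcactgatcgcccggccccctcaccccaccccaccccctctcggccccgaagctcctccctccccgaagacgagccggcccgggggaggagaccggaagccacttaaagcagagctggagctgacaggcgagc

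The Cyp1a1 sequence lies at chr9:57697363-57697612 on the plus strand, with its single core starting 54 bases upstream. The start used for Cyp1a1 lies inside the annotated span of the gene, chr9:57687928-57703824, which has 2 transcripts. That of Cyp1b1 lies at chr17:79715062-79715311 on the minus strand, with a single core at 76 bases upstream, on the opposite strand. The Ahrr sequence, at chr13:74292332-74292581 on the minus strand, holds 3 cores at 107, 82 and 27 bases upstream. That of Tiparp, at chr3:65528197-65528446 on the plus strand, holds 1 core at 170 bases upstream, on the opposite strand. Of the 8 genes, 6 had a promoter in the RefSeq table, and 5 of these 6 held GCGTG on either strand, against 28.2% of 32851 promoters of the same length. The other carrier was Arnt, with 1 core 29 bases upstream, and the Cyp2s1 window held none. The longer form TNGCGTG, which contains GCGTG, was found in 1 of the 6, around the Ahrr core at 27 bases, against 4.1% of all promoters. These promoters differ in base composition, from 53.6% G or C in Cyp1a1 to 75.2% in Tiparp. The matches describe letters in these windows and show no binding.

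Cyp1a1 and Cyp1b1 code for monooxygenases that oxidise polycyclic aromatic hydrocarbons, and Cyp1a1 is the textbook target of the receptor. Cyp1a1 (chr9:57687928-57703824, mm10) had from 28.2 to 284 normalised counts, median 102, in female smoke, against 0.926 to 7.94, median 3.0, in female air cultures. Male cells had from 59.9 to 829, median 196, in smoke, against 4.42 to 11.2, median 5.79, in air. Air cultures thus held a few counts each, and the lowest smoke culture of each sex lay above the highest air culture. The log2 fold change was 4.65 ± 0.63 in female cells (SE, adjusted p = 2.24e-05) and 4.76 ± 0.63 in male cells (adjusted p = 1.89e-05). As Cyp1a1 was under the filter in air, these p-values are those of a gene admitted only through its smoke cultures. The spread within smoke was wide, with means of 137 ± 115 in female and 314 ± 307 in male smoke, against 3.41 ± 2.62 in female and 6.79 ± 2.68 in male air cultures (SD, n = 6 each). In the authors' deposited table, with its sign turned so that positive means higher in smoke, the log2 fold change of Cyp1a1 was 4.12 in female and 3.16 in male cells.

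Cyp1b1 (chr17:79706941-79715061) was abundant even without smoke. In female cells it had from 5024 to 17232 normalised counts, median 7575, in smoke, against 610.1 to 1427, median 1027, in air. In male cells its counts ran from 10205 to 23751, median 16027, in smoke, against 3605 to 4284, median 4218, in air. All smoke cultures exceeded all air cultures of their sex, and male air cultures lay close together while smoke cultures spread. The log2 fold change was 3.08 ± 0.27 in female (adjusted p = 1.02e-07) and 2.01 ± 0.27 in male cells (adjusted p = 1.94e-05).

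**Figure D2:**
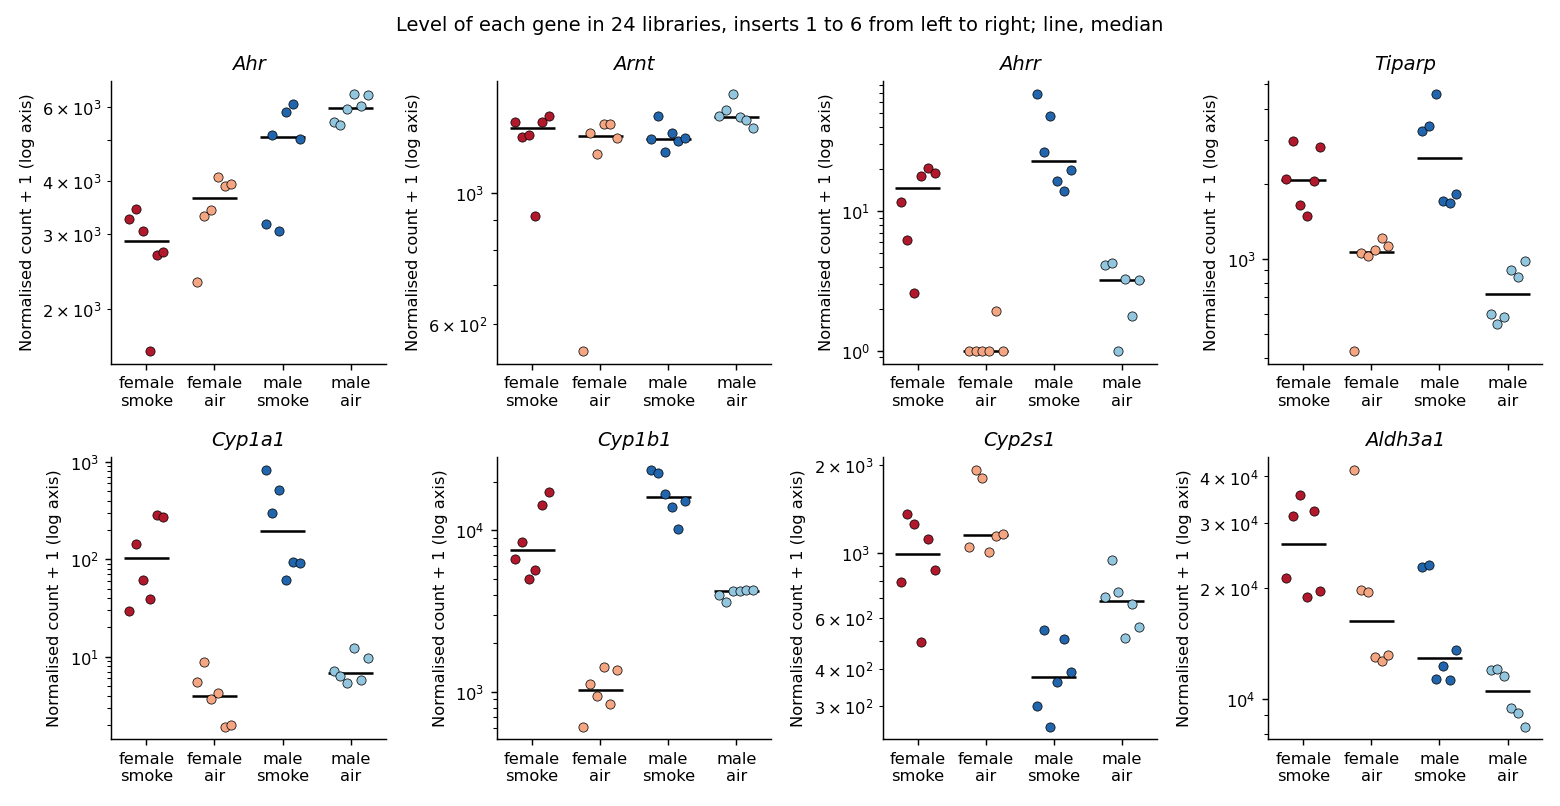
Normalised count + 1 (log axis) of the 8 genes in each of the 24 libraries, 1 point per insert, grouped as female smoke, female air, male smoke and male air, with a line at the group median. For Cyp1a1, Cyp1b1, Ahrr and Tiparp the smoke and air points of a sex do not overlap, for example 28.2 to 284 in smoke against 0.926 to 7.94 in air for Cyp1a1 in female cells.

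Ahrr (chr13:74211118-74292331), the repressor that shares the receptor's partner and binding sites, was close to undetected in air. It had from 1.60 to 19.4 normalised counts in female smoke, against 0 in 5 and 0.926 in 1 of the female air cultures. Male smoke cultures had from 12.9 to 68.0, against 0 to 3.22 in male air cultures. The groups did not overlap in either sex, although the lowest female smoke culture, insert 3, stood at 1.60. The female smoke libraries together held 64 reads and the female air libraries 1 read, a ratio of 62.6 after scaling, with a counting interval from 10.8 to 2513 at 95% that covers counting error only. The male group means differed 16.2-fold. On the log2(value + 1) scale, which understates the change of so low a gene, the fold change was 3.22 ± 0.50 in female (adjusted p = 7.70e-05) and 3.37 ± 0.50 in male cells (adjusted p = 6.03e-05). These p-values are those of a gene that the filter admitted only through its smoke cultures.

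Tiparp (chr3:65528447-65555518) had from 1485 to 2949 normalised counts, median 2064, in female smoke, against 426 to 1206, median 1066, in female air cultures. Its male values ran from 1669.9 to 4577, median 2526, in smoke, against 544 to 975, median 722, in air. Smoke lay above air throughout in both sexes. The log2 fold change was 1.16 ± 0.27 in female (adjusted p = 0.00248) and 1.80 ± 0.27 in male cells (adjusted p = 7.50e-05). The gene overlaps 4931440P22Rik on the opposite strand, and as the strandedness of the libraries is not given in the sources used here, reads of the pair cannot be told apart.

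Ahr and Arnt themselves showed no change past the threshold with all libraries in the fit and no weights. Ahr (chr12:35497979-35534989), the receptor, had from 1589 to 3432 normalised counts, median 2882, in female smoke, against 2314 to 4085, median 3657, in female air cultures. In male cells it had from 3055 to 6094, median 5091, in smoke, against 5418 to 6433, median 5973, in air. The groups overlapped in both sexes, with smoke medians under air medians. The log2 fold change was -0.34 ± 0.19 in female cells (95% interval -0.73 to 0.05, adjusted p = 0.165) and -0.39 ± 0.19 in male cells (-0.77 to 0.003, adjusted p = 0.147). Without female air insert 1, which held the lowest Ahr value of its group, the female value was -0.46 with an adjusted p of 0.044. Without that library and female smoke insert 4 it was -0.30 with an adjusted p of 0.111, while the male value of -0.39 had an adjusted p of 0.0288. The female value of Ahr was 0.13 from inserts 1 to 3 alone (adjusted p = 0.691) and -0.81 from inserts 4 to 6 alone (adjusted p = 0.00441), and with array quality weights it was -0.39 (adjusted p = 0.00215).

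Arnt (chr3:95434390-95497239), the partner that the receptor needs to bind DNA, had from 913 to 1347 normalised counts, median 1283, in female smoke, against 540.1 to 1308, median 1248, in female air cultures. The male values ran from 1169 to 1349, median 1234, in smoke, against 1283 to 1468, median 1343, in air. The lowest value of each female group came from the libraries that stand apart, and the groups overlapped in both sexes. The log2 fold change was 0.16 ± 0.15 in female cells (95% interval -0.16 to 0.48, adjusted p = 0.447) and -0.12 ± 0.15 in male cells (adjusted p = 0.611). Without female air insert 1 the female value was -0.038, and without both libraries that stand apart the male value of -0.12 had an adjusted p of 0.0267, as the pooled spread was smaller. With all libraries and array quality weights the male value was -0.12 with an adjusted p of 0.0347.

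Cyp2s1 and Aldh3a1, reported as receptor targets in epithelia, did not rise past the threshold in either sex with all libraries in the fit and no weights. Cyp2s1 (chr7:25802469-25816525), a P450 of epithelial tissues, had from 495 to 1355 normalised counts, median 995, in female smoke, against 1010.1 to 1930.1, median 1149, in female air cultures. In male cells it had from 254 to 543, median 376, in smoke, against 509.5 to 944, median 686, in air. The groups overlapped, in male cells only in the narrow stretch between the lowest air and the highest smoke culture. It fell in male cells, by 0.83 ± 0.24 on the log2 scale (adjusted p = 0.0144). In female cells the value was -0.48 ± 0.24 (95% interval -0.97 to 0.01, adjusted p = 0.119).

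Aldh3a1 (chr11:61208742-61218416), which oxidises aldehydes such as those formed by lipid peroxidation, had from 18875 to 35607 normalised counts, median 26259, in female smoke, against 12657 to 41759.5, median 16259, in female air cultures. In male cells it had from 11225 to 22974, median 12899, in smoke, against 8395 to 11999, median 10484, in air. The groups overlapped, and the highest female air value was that of insert 1, which stands apart. The log2 fold change was 0.51 ± 0.26 in female cells (95% interval -0.04 to 1.05, adjusted p = 0.14) and 0.53 ± 0.26 in male cells (-0.01 to 1.07, adjusted p = 0.152). Without female air insert 1 the female value was 0.75 with an adjusted p of 0.00901. Without it and female smoke insert 4 it was 0.84 (adjusted p = 0.00478), and the male value of 0.53 had an adjusted p of 0.0353. With array quality weights Aldh3a1 passed in female (0.77, adjusted p = 0.0012) and male cells (0.42, adjusted p = 0.0289). A limma fit of only the groups compared gave an adjusted p of 0.0425 in male and 0.255 in female cells. In the authors' deposited table, which fitted the sexes apart, the male log2 fold change of Aldh3a1 was 0.57 with an adjusted p of 0.0116, and the female one was 0.38 with an adjusted p of 0.382.

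Levels can be set against each other only per length, and as mean normalised counts per kb of the longest annotated transcript Aldh3a1 led in every group, at 15296 in female smoke, 11516 in female air, 9052 in male smoke and 6016 in male air cultures. Cyp1b1 came second in smoke, at 1852 in female and 3313 in male cultures. In air its level per kb was 204 in female cells, below Ahr at 636, Cyp2s1 at 514, Arnt at 259.8 and Tiparp at 237, and 794 in male cells, below Ahr at 1084. Cyp1a1 and Ahrr held the last places in all 4 groups, at 50.8 and 2.50 per kb in female smoke, 1.26 and 0.0325 in female air, 116 and 6.57 in male smoke, and 2.51 and 0.405 in male air cultures. Several neighbours in these orders differed by less than the SD between inserts. They were Tiparp and Ahr (521 and 507) and Cyp2s1 and Arnt (375 and 282) in female smoke. In male smoke they were Ahr and Tiparp (859 and 657), Cyp2s1 and Cyp1a1 (150 and 116), and Cyp1a1 and Ahrr (116 and 6.57). In female air they were Ahr and Cyp2s1, and Arnt, Tiparp and Cyp1b1, and in male air Arnt and Cyp2s1 (311 and 262). The place of Cyp1a1 behind Cyp2s1 in male smoke therefore rests on the means alone.

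**Figure D3:**
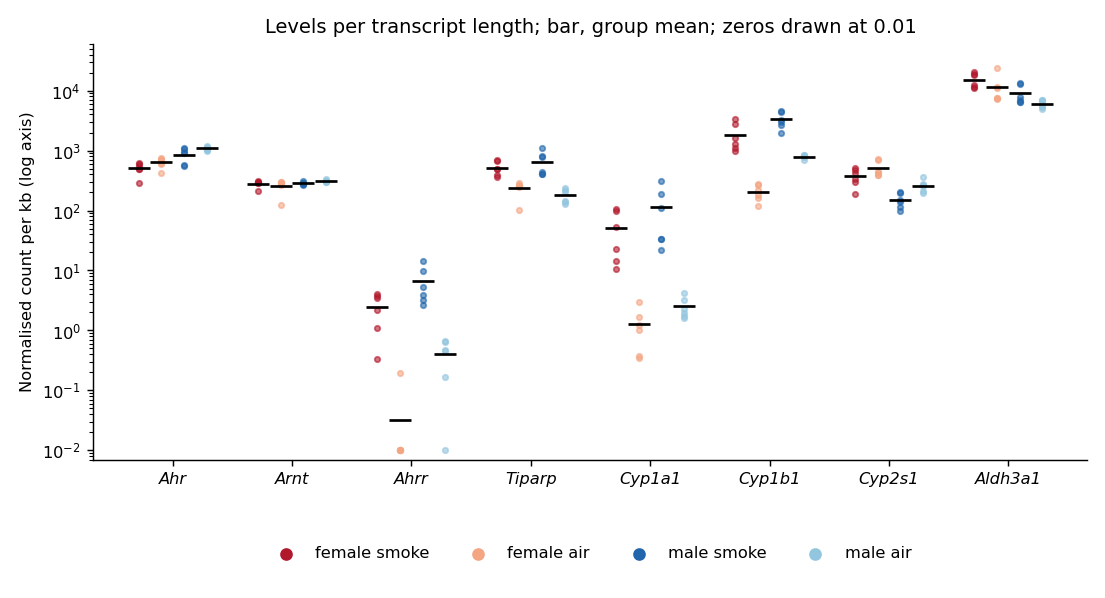
Normalised count per kb of transcript (log axis) of each gene in female smoke, female air, male smoke and male air cultures, with the group mean as a bar, 1 point per insert and values of 0 drawn at 0.01. By group mean, Aldh3a1 stands highest in each group, and Cyp1a1 and Ahrr stand lowest, for example at 1.26 and 0.0325 in female air.

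Female and male cells differed in air in the level of 4 of the 8 genes, where 39.0% of all genes passed. Cyp1b1 was lower in female than in male cultures by a log2 difference of -2.02 ± 0.27 (adjusted p = 2.30e-06), and Ahr was lower by -0.79 ± 0.19 (adjusted p = 0.00179). Cyp2s1 was higher in female cultures by 0.95 ± 0.24 (adjusted p = 0.00257) and Aldh3a1 by 0.81 ± 0.26 (adjusted p = 0.0177). For each of these 4 genes the female and male air cultures did not overlap, which held for 33.2% of all genes. For Ahrr the value was -1.23 (adjusted p = 0.0536), which passed at 0.0402 without female air insert 5 and at 0.0213 without male air insert 3. Ahrr also passed in edgeR (-2.75, adjusted p = 0.0462), DESeq2 (-2.78, adjusted p = 0.0244), and limma with a pseudocount of 0.5 (-1.75, adjusted p = 0.0208) or array quality weights (-1.21, adjusted p = 0.00613). It did not pass from inserts 1 to 3 (adjusted p = 0.171), from inserts 4 to 6 (0.0617) or without female air insert 1 and female smoke insert 4 (0.0585). Tiparp, at 0.38 (adjusted p = 0.284), passed at 0.60 without female air insert 1 (adjusted p = 0.0473). Arnt stood at -0.32 (adjusted p = 0.11) with all libraries. Without female air insert 1 and female smoke insert 4, 6 of the 8 genes passed in air, with Tiparp at 0.60 (adjusted p = 0.0351) and Arnt at -0.11 (adjusted p = 0.0438) beside the 4 above, and 7557 of all genes did, against 5282.

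Under smoke, Cyp1b1, Ahr and Ahrr were lower in female cultures, by log2 differences of -0.94 (adjusted p = 0.00885), -0.75 (adjusted p = 0.00338) and -1.38 (adjusted p = 0.0366). Cyp2s1 and Aldh3a1 were higher in female cultures, by 1.30 (adjusted p = 0.000148) and 0.78 (adjusted p = 0.025). These 5 of 8 stand beside 32.2% of all genes, and each overlapped between the sexes, where 17.6% of all genes did not. The Cyp1b1 difference was -1.66 from inserts 1 to 3 (adjusted p = 0.000899) and -0.21 from inserts 4 to 6 (adjusted p = 0.658), and -0.47 with array quality weights (adjusted p = 0.12). That of Ahr was -0.18 from inserts 1 to 3 (adjusted p = 0.597) and -1.31 from inserts 4 to 6 (adjusted p = 0.00026). The Ahrr call was lost without any of inserts 1 to 3 of female or male smoke, at adjusted p-values of up to 0.11 and a lowest difference of -0.98 without female smoke insert 3. The Aldh3a1 call was lost without female smoke insert 2, 3 or 5 or male smoke insert 3, 4 or 5, at adjusted p-values of up to 0.0624 and a lowest difference of 0.69.

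The response to smoke was also compared between the sexes directly, as the female minus the male log2 fold change. None of the 8 genes passed in limma, where 1.03% of all genes did, 1 of the 8 had an unadjusted p under 0.05, and edgeR and DESeq2 on recovered reads passed 0. Cyp1b1 had the largest value in favour of female cells, 1.08 ± 0.38 (95% interval 0.30 to 1.86, unadjusted p = 0.00898, adjusted p = 0.185). For Tiparp it was -0.64 ± 0.39 (-1.44 to 0.16, adjusted p = 0.527). For Cyp1a1 it was -0.10 ± 0.89 with an interval from -1.95 to 1.74, so differences of more than 3-fold in either direction lie within it.

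Some of these genes differed by insert number within the smoke groups and within the air groups. In male smoke, Cyp1a1 ran from 300.3 to 829 in inserts 1 to 3 and from 59.9 to 91.9 in inserts 4 to 6, which did not overlap. In female smoke it ran from 28.2 to 144 in inserts 1 to 3 and from 38.4 to 284 in inserts 4 to 6, which overlapped. Inserts 1 to 3 of male smoke also lay wholly above inserts 4 to 6 for Cyp1b1 (16789 to 23751, against 10205 to 15265), Tiparp (3237 to 4577, against 1669.9 to 1814) and Ahrr (25.4 to 68.0, against 12.9 to 18.6). These 4 of 8 genes stand beside 33.2% of all genes tested whose male smoke inserts were split in this way in either direction. In female smoke 2 of 8 were split, beside 16.3% of all genes. Ahrr lay lower in inserts 1 to 3, at 1.60 to 10.6, than in inserts 4 to 6, at 16.8 to 19.4, and Ahr lay higher, at 3048 to 3432 against 1589 to 2716. In air, male inserts 1 to 3 lay wholly below inserts 4 to 6 for Tiparp, at 544 to 599 against 845 to 975. Ahr lay below likewise (5418 to 5916, against 6030 to 6433), while Arnt, Cyp2s1 and Aldh3a1 lay wholly above. In female air, Tiparp and Ahr lay wholly below and Aldh3a1 wholly above (19420 to 41759.5, against 12657 to 13097). The share of all genes split in air was not counted, so these air splits are not shown to be particular to these genes. The labels do not say what an insert number marks, so its part in these values was not tested.

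The smoke response of Cyp1a1 held in each set of inserts but not at the same size. From inserts 1 to 3 alone it was 3.49 in female (adjusted p = 0.0115) and 6.33 in male cells (adjusted p = 0.00024), and from inserts 4 to 6 alone it was 5.82 (adjusted p = 0.000196) and 3.18 (adjusted p = 0.0208). Under smoke, Cyp1a1 was lower in female cultures by -2.98 on the log2 scale from inserts 1 to 3 (adjusted p = 0.0038), against a female minus male value of 0.85 from inserts 4 to 6 (adjusted p = 0.352). The female Ahrr response was 2.52 from inserts 1 to 3 (adjusted p = 0.0595) and 3.92 from inserts 4 to 6 (adjusted p = 0.000108). The fall of Cyp2s1 in male cells was -1.19 from inserts 1 to 3 (adjusted p = 0.0286) and -0.47 from inserts 4 to 6 (adjusted p = 0.331).

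**Figure D4:**
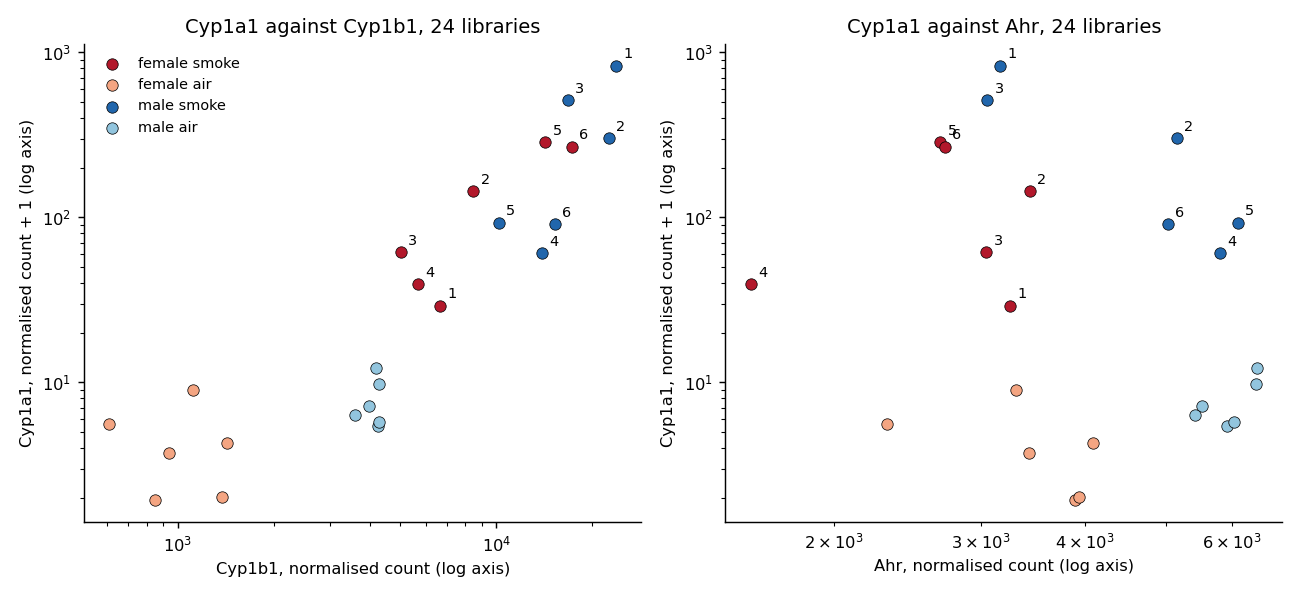
Cyp1a1 (normalised count + 1, vertical log axis) against Cyp1b1 (left) and Ahr (right, normalised counts, log axes) in each library, coloured by group, with insert numbers beside the smoke cultures. Air cultures sit at 11.2 Cyp1a1 counts or fewer, and male smoke inserts 1 to 3 stand above inserts 4 to 6, at 300.3 to 829 against 59.9 to 91.9.

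Within groups, the deviations of Cyp1a1 from its group mean went with those of Cyp1b1 (Pearson r = 0.62) and Tiparp (0.49) over the 24 libraries, and in the opposite direction to Ahr (-0.37). Over all genes tested, the genes most like Cyp1a1 by this measure were Osgin1 (0.83), Larp1 (0.75) and Myc (0.74). For Cyp1b1 they were Vps33a (0.79), Camsap1 (0.77) and Magi3 (0.73), and for Tiparp Rbm27 (0.93), Epha2 (0.91) and Rab6a (0.90). For Ahr they were Zfp608 (0.94), Mlph (0.93) and Pls1 (0.93), and for Aldh3a1 Pnkd (0.85), Adamtsl5 (0.83) and Gstp1 (0.80). These coefficients share the libraries, their depth and the 2 libraries that stand apart. Without those 2, Osgin1 (0.86) remained among the 3 most like Cyp1a1, Vps33a (0.79) for Cyp1b1, Rbm27 (0.91) for Tiparp, and Zfp608 (0.92) and Mlph (0.90) for Ahr, while none of the 3 did for Aldh3a1.

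Other genes reported to answer to the receptor moved in both directions. Their list was written with earlier results of these data known, so the counts describe the list and test nothing. Of 15 tested, 6 rose and 1 fell in female cells, where 15.5% of all genes rose and 19.3% fell, and 4 rose and 2 fell in male cells, where 9.76% rose and 12.2% fell, with median log2 fold changes of 0.41 and 0.38, against -0.003 and -0.006 over all genes tested. Serpinb2, a plasminogen activator inhibitor, rose by 3.45 ± 0.52 in female (adjusted p = 6.09e-05) and 1.46 ± 0.52 in male cells (adjusted p = 0.0468). Slc7a5, an amino acid transporter, rose by 2.37 ± 0.24 in female (adjusted p = 1.03e-06) and 0.93 ± 0.24 in male cells (adjusted p = 0.00831), and the difference of 1.44 between these responses had an adjusted p of 0.042. Gsta1, a glutathione transferase, rose by 2.07 ± 0.63 in female (adjusted p = 0.0139) and 2.39 ± 0.63 in male cells (adjusted p = 0.00918). Nqo1, a quinone reductase that also answers to the oxidant sensor encoded by Nfe2l2, rose by 1.16 ± 0.33 in female cells (adjusted p = 0.00919) and had 0.89 ± 0.33 in male cells (adjusted p = 0.0568). Cyp2a5, a P450, fell by 1.29 ± 0.43 in female (adjusted p = 0.0216) and by 3.49 ± 0.43 in male cells (adjusted p = 8.21e-06). Cyp1a2, the liver member of the family, was below the filter.

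**Figure D5:**
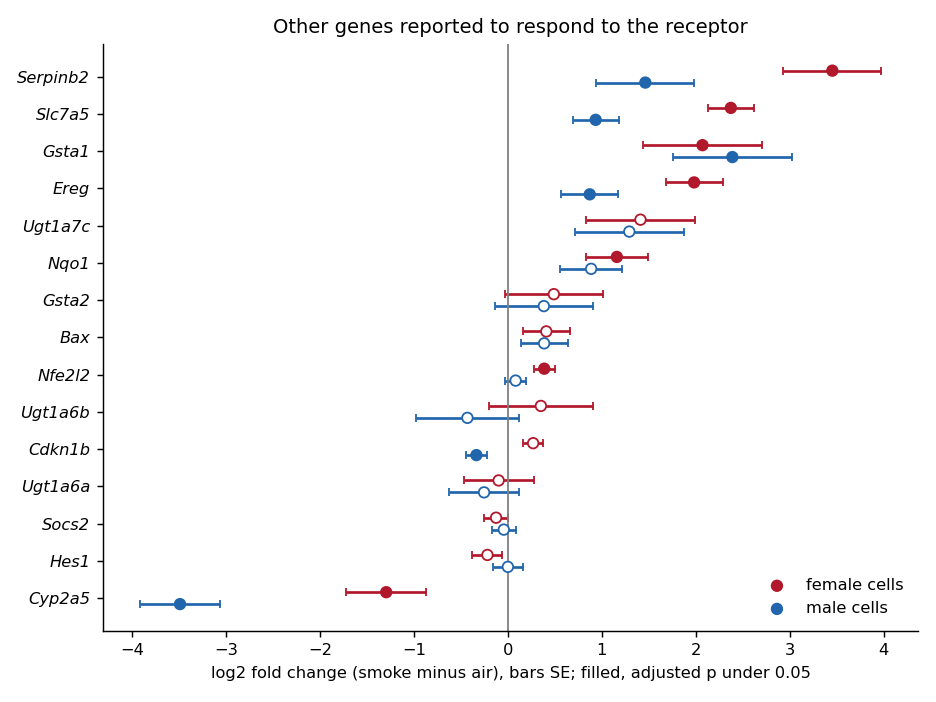
Log2 fold change of smoke over air in female and male cells for 15 other genes reported to answer to the receptor, with the SE as bars and filled points where the adjusted p was under 0.05. Serpinb2 stands highest in female cells, at 3.45, and Gsta1 in male cells, at 2.39, while Cyp2a5 stands lowest in both, at -1.29 in female and -3.49 in male cells.

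The counts that follow stand beside the same shares of all genes, 15.5% upwards and 19.3% downwards in female and 9.76% upwards and 12.2% downwards in male cells. These lists too were written with earlier results known, and the counts are descriptions. Of 10 coregulators of the receptor, 0 passed in limma in female cells, with 0 at an unadjusted p under 0.05 and 0 in edgeR and DESeq2, and in male cells the coactivator Ncoa1 fell by 0.68 ± 0.22 (adjusted p = 0.0302). Of 10 related bHLH-PAS genes, which include other partners of Arnt, 3 rose and 2 fell in female cells and 0 rose and 3 fell in male cells. The hypoxia factor Hif1a rose by 0.76 ± 0.11 in female cells (adjusted p = 4.53e-05), the Arnt relative Arnt2 fell there by 1.34 ± 0.47 (adjusted p = 0.029), and Epas1, another hypoxia factor, fell by 1.94 ± 0.43 in male cells (adjusted p = 0.00246).

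Genes that work beside these enzymes were counted likewise, where 19.3% of all genes fell in female and 12.2% in male cells. Of 7 partners of P450 metabolism, 1 rose and 1 fell in female and 0 rose and 4 fell in male cells. Por, which passes electrons to Cyp1a1 and Cyp1b1, fell by 0.59 ± 0.11 in male cells (adjusted p = 0.000878) and had 0.03 ± 0.11 in female cells (adjusted p = 0.845). Of 8 relatives of Aldh3a1, 0 rose and 4 fell in female and 0 rose and 5 fell in male cells. Aldh1a1, a retinal dehydrogenase, fell by 2.04 ± 0.49 in female (adjusted p = 0.00301) and 1.64 ± 0.49 in male cells (adjusted p = 0.0189). The single kynurenine pathway gene above the filter, Afmid, did not pass in either sex in limma, edgeR or DESeq2, with 0 at an unadjusted p under 0.05.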

How the data were processed

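The study measured RNA from 24 cultures in 4 groups of 6, grouped by the labels. The values are a signal, counts that the authors normalised with DESeq2 before deposit. Builds GRCm38 and mm10 and the tools HTSeq, DESeq2, Trimmomatic 0.38.0 and FastQC 0.11.9 stand in the submitters' processing notes. The aligner is not given in the sources used here. The authors also deposited DESeq2 tables of log2 fold changes with their standard errors, p-values and a Wald score, and an annotation with other values such as gene positions. Their sign was turned, so that positive means higher in smoke.

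Genes with a mean of at least 10 were tested with limma 3.58.1 in R 4.3.3 on log2(value + 1), with 1 mean per group over all 24 libraries, a mean-variance trend, two-sided tests, and Benjamini-Hochberg adjustment over 13549 genes at 0.05. Values after ± are SE for fold changes and SD for means. Within a tolerance of 0.001, all values were whole multiples of 1 step per library. Reads were recovered in 23 libraries for edgeR 4.0.16 and DESeq2 1.42.0, as the step of male smoke insert 5 was too near 1. The fit was tested on simulated data. Insert numbers were not taken as pairs. Alternatives covered scaling, pseudocount, filter, weights, blocks, subsets of libraries and tools. The 8 genes and all lists were chosen with earlier results of these data known. All 8 genes are described. In each list up to 4 genes with the largest called change could be named, and others as examples with their values. For 5 of the 8 genes the 3 most correlated genes are named, predicted gene models aside. One list of genes around the receptor is not reported here.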

Additional observations from a re-analysis of the deposited data

Results flagged for a closer look

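Each of the 8 genes was checked in each group of 6 libraries for a value far from the other 5, and 7 of the 32 sets held one, where chance alone gives about 1 in 20. Female air insert 1 held 4 of them. Its Tiparp value was 426, with the others at 1029 to 1206, its Ahr value 2314, with the others at 3303 to 4085, its Arnt value 540.1, with the others at 1159.7 to 1308, and its Aldh3a1 value 41759.5, with the others at 12657 to 19668. Female smoke insert 4 held 2, with Ahr at 1589 beside 2684 to 3432 and Arnt at 913 beside 1241 to 1347. These are the libraries with a trend along transcript length. The last was Ahrr in female air insert 5, at 0.926 where the other inserts were listed at 0.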

How the results depend on the processing

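The rise of Cyp1a1, Cyp1b1 and Tiparp under smoke passed in both sexes under every alternative run, and that of Ahrr did so except in female inserts 1 to 3 alone. Ahrr had no value under a minimum mean of 50. With 1 library left out, 4 to 6 of the 8 genes passed for smoke in female and 5 in male cells, 0 for the difference of the responses, 4 to 5 for the sexes in air and 3 to 5 for the sexes under smoke, with 3 without female smoke insert 2, female smoke insert 3 or male smoke insert 3. Calls over all genes are not given for the fits with 1 library left out. Without female air insert 1 and female smoke insert 4, 8 passed for smoke in male cells, against 5 of 8 with all libraries, where calls over all genes numbered 6398, against 2979. Array quality weights gave 1 for the difference of the responses (Cyp1b1, 1.27, adjusted p = 0.00552), against 0, 8 for the sexes in air, against 4, and 3 under smoke, against 5. Over all genes the weights gave 2420 calls for the difference, against 140, and 9490 in air, against 5282. Inserts 1 to 3 alone gave 2 in air, where 2859 of all genes passed, and inserts 4 to 6 alone 3 under smoke, where 4483 did. The causes were not tested.

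Some signs turned, most of them of values that had not passed. The difference of the responses turned under quantile scaling for Cyp1a1 (0.46) and Aldh3a1 (0.10), under a pseudocount of 0.5 for Cyp1a1 (0.030) and Ahrr (0.30), under array quality weights for Cyp1a1 (1.51), Ahrr (0.47), Ahr (-0.22) and Aldh3a1 (0.35), and without the 2 libraries for Cyp1a1 (0.26) and Aldh3a1 (0.31). In inserts 4 to 6 alone it was 2.64 for Cyp1a1, 1.28 for Ahrr, -0.65 for Ahr, -0.042 for Arnt, -0.019 for Cyp2s1 and 0.37 for Aldh3a1, and for Ahrr it was 1.16 in edgeR and 1.20 in DESeq2. With 1 library left out it ran from -0.45 to 0.31 for Cyp1a1, -0.34 to 0.25 for Ahrr, -0.072 to 0.20 for Ahr and -0.13 to 0.22 for Aldh3a1. The sexes under smoke turned with weights for Cyp1a1 (0.20), Tiparp (0.25) and Arnt (0.065), in inserts 1 to 3 for Arnt (0.025), in inserts 4 to 6 for Cyp1a1 (0.85), Ahrr (0.20) and Tiparp (0.24), and without the 2 libraries for Arnt (0.057), which ran from -0.055 to 0.057 with 1 left out. In female cells the smoke value of Ahr was 0.13 in inserts 1 to 3, against -0.81 in inserts 4 to 6, and that of Arnt -0.13 in inserts 4 to 6, and Arnt ran from -0.038 to 0.25 with 1 left out.

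With the insert number as a replicate block, Cyp2s1 also passed in female cells (-0.48, adjusted p = 0.04), making 5, with 5 in male cells, 0 for the difference, 4 in air and 5 under smoke. Calls over all genes with the block were 4534, 2798, 112, 5202 and 4235 in the same order. Same-numbered inserts correlated at -0.21 to 0.37 in female cells, over 0.1 in 5 of 6 pairs, and at -0.24 to 0.12 in male cells, over 0.1 in 2 of 6, and a sample correlated best with its own number in 2 of 6 and 1 of 6 pairs. Since not every pair passed 0.1 and the labels name no pairing, the numbers were not taken as pairs. Over all genes, calls for smoke numbered 4713 in female cells (656 in inserts 1 to 3 to 7709 with weights), 2979 in male cells (931 in inserts 4 to 6 to 6677 with weights), 140 for the difference (40 to 2420), 5282 in air (2859 to 9490) and 4364 between the sexes under smoke (3082 to 6967). Depth limits Ahrr in air, where 1 read in 6 female libraries sets its ratio.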

Other observations

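The ratios of mean levels per kb between the genes are given as values with no test. Cyp1b1 stood 36.5 times above Cyp1a1 in female smoke and 162 times above it in female air cultures, and 28.4 times above it in male smoke and 316 times above it in male air cultures. Ahr stood 203 times above its repressor Ahrr in female smoke and 19574 times above it in female air cultures, the second resting on 1 read of Ahrr, and 131 times above it in male smoke and 2675 times above it in male air cultures. Ahr stood 1.80 times above Arnt in female smoke and 2.45 times in female air cultures, and 3.01 times in male smoke and 3.49 times in male air cultures.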
